A study of Oryza sativa Japonica Group with 20 samples.

Results

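Bivalent chromatin carries both H3K27me3 and H3K4me3, and 851 H3K27me3 regions of rice root tips that also held H3K4me3, but no peak of PLT5 or EMF2b, in wild-type (WT) plants are described here. H3K27me3 is deposited by Polycomb repressive complex PRC2 and marks silenced genes, whereas H3K4me3 is found at the starts of genes that are transcribed or ready to be. EMF2b is a subunit of PRC2 in rice, and PLT5 is an AP2-type transcription factor of the PLETHORA family, whose members in Arabidopsis maintain the stem cells and dividing cells of the root tip. Regions with both histone marks are known from animals and plants at developmental genes that are silent but can be switched on.

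CUT&Tag, in which an antibody guides a transposase to cut and tag chromatin, was applied to nuclei from untreated root tips of about 0.8 cm, collected 7 days after germination. The plants were plt345, a mutant named for the 3 genes PLT3, PLT4 and PLT5, and WT plants of ZH11. The sources used here do not describe the mutant alleles. There were 2 libraries for each of H3K27me3, H3K4me3 and EMF2b in plt345 and in WT, and 2 for PLT5 in WT. The study asks how PLT proteins affect gene expression and chromatin in the root meristem.

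The H3K27me3 lists held 20841 and 20942 peaks in plt345, against 23957 and 24185 in WT. For H3K4me3 the numbers were 27182 and 26841 in plt345 and 25762 and 25165 in WT, and for EMF2b 15342 and 17891 in plt345 and 15486 and 14851 in WT. PLT5 had 12590 and 10822 peaks in WT. With the read depth unknown, these numbers are the guide to precision, and H3K27me3 had fewer peaks in both plt345 libraries than in either WT library. No source says whether replicates are separate plants, so the spread between them may be technical. The root tip is a mixed tissue: fewer cells with a mark and less of the mark per cell cannot be told apart, and peaks of both marks at a place need not share a cell or a nucleosome.

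The regions were chosen from the WT peak lists. Peaks of both WT H3K27me3 lists were merged into 25890 regions, of which 21044 had at least 150 bp covered in each library. Of these, 4377 also had at least 150 bp under H3K4me3 peaks of each WT library and are called bivalent. A PLT5 or EMF2b peak of any WT library touched 3526 of them, and none touched the remaining 851, or 19.4% of the bivalent regions. The members are set beside 2752 bivalent regions that carried peaks of both PLT5 and EMF2b, 475 with PLT5 only, 299 with EMF2b only, and 12326 regions with H3K27me3 but no H3K4me3, PLT5 or EMF2b peak. The rule asks for both marks in a region and not at the same bases. With 150 bp under both marks at the same bases in place of this there were 776 members. The member count depended on the strictness of the rule: it was 337 when 500 bp had to be covered, 1318 when a PLT5 or EMF2b peak was allowed in 1 library, 1422 without WT replicate 1 and 1332 without WT replicate 2. Coordinates are those of the lists. The sources used here do not give the genome build, so regions were not assigned to genes.

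Members were found on all 12 chromosomes. Their share of the bivalent regions lay between 14.4% on chromosome 1 (92 of 638) and 26.9% on chromosome 11 (85 of 316), and 2 members lay on an unplaced sequence. They were scattered: the median distance to the nearest other member was 121103 bp, and 79 members (9.28%) had another within 10 kb. WT peaks of PLT5 or EMF2b touched no member by the rule, and their distance from the members varied. The nearest peak of PLT5 lay at a median of 7223 bp, that of EMF2b at 5562 bp and that of either at 4359 bp. A peak of either was within 500 bp of 19 members (2.23%) and within 1000 bp of 112 (13.2%). For H3K27me3 regions without H3K4me3 and without PLT5 or EMF2b, 1.02% had such a peak within 500 bp and 5.22% within 1000 bp. In 54 members (6.35%) a PLT5 or EMF2b peak lay on the part of the H3K4me3 peak that reached beyond the H3K27me3 region.

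The members were about as wide as H3K27me3 regions without H3K4me3 and wider than bivalent regions with PLT5 and EMF2b. Their median width was 1399 bp, with quartiles of 778 and 2211 bp, the 10th and 90th percentiles at 548 and 3042 bp and a full range of 286 to 5787 bp. The median was 1122 bp in bivalent regions with PLT5 and EMF2b, 1271 bp with PLT5 only, 1659 bp with EMF2b only and 1382 bp in H3K27me3 regions without H3K4me3. Together the members spanned 1.38 Mb. Widths come from the lists that chose the regions, and so do the WT placement and strength of the marks given next, which are descriptions with no test.

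**Figure D1:**
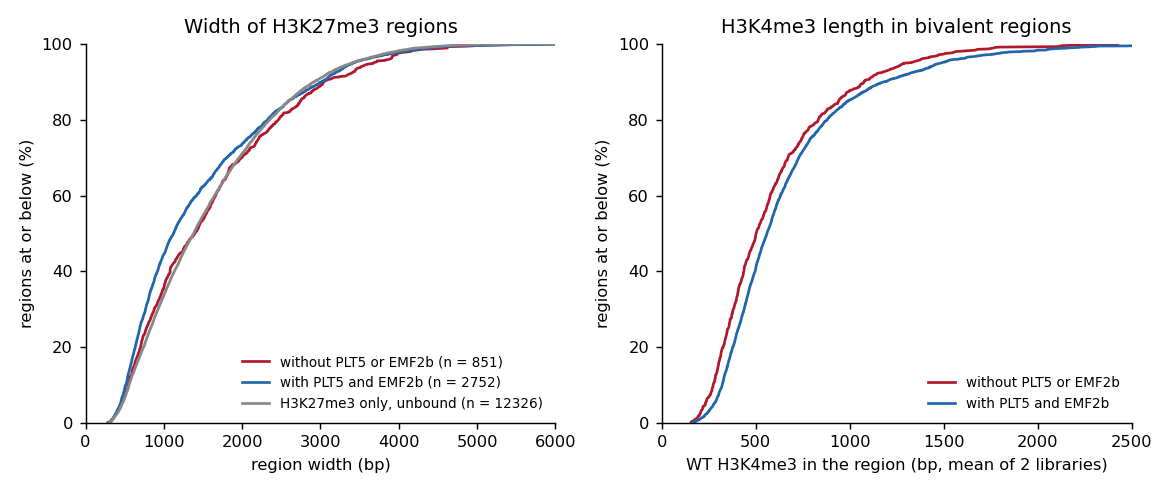
Cumulative share of regions (%) against region width in bp (left) and against the H3K4me3 length inside the region in bp, as the mean of both WT libraries (right). The curve of members reaches 50% at a width of 1399 bp, against 1122 bp for bivalent regions with PLT5 and EMF2b and 1382 bp for H3K27me3 regions without H3K4me3, and its H3K4me3 lengths lie to the left of those of regions with PLT5 and EMF2b.

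H3K4me3 formed 1 block that covered less of the region in members than in bivalent regions with PLT5 and EMF2b. Exactly 1 H3K4me3 peak touched 95.7% and 96.0% of the members in the 2 WT libraries. H3K4me3 covered a median of 498 and 497 bp of a member, against 558 and 563 bp of a bivalent region with PLT5 and EMF2b. As a share of the region the medians were 43.9% and 43.5% in members, against 58.8% and 59.2% with PLT5 and EMF2b. The whole H3K4me3 peaks, with the part outside the region, were also shorter in members, at medians of 826 and 829 bp against 1101 and 1088 bp. Of their bases, 63.2% and 62.9% lay inside the H3K27me3 region, against 56.5% and 56.4% with PLT5 and EMF2b.

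The H3K4me3 peaks of members were weak within their own lists, while the H3K27me3 peaks were near the middle of theirs. Ranked by the −log10 q that the authors' peak caller gave, the strongest H3K4me3 peak of a member stood at a median percentile of 36.5 and 36.4 in the WT lists. The peaks of bivalent regions with PLT5 and EMF2b stood at 52.3 and 52.4, those with PLT5 only at 48.4 and 47.0, and those with EMF2b only at 44.1 and 42.2. For H3K27me3 the percentiles were 49.2 and 50.7 in members, against 53.4 and 56.8 with PLT5 and EMF2b. The −log10 q of a peak grows with depth as well as with enrichment, so percentiles were compared only within a list.

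Most members had H3K4me3 at 1 end. In both WT replicates the H3K4me3 peak crossed 1 edge of the H3K27me3 region in 462 members (54.3%), lay inside it in 263 (30.9%) and spanned it in 26 (3.06%), while in 100 (11.8%) the replicates differed in placement. Members with H3K4me3 inside were wide, with a median of 2039 bp, those with a crossed edge had 1085 bp and the 26 spanned regions 652.5 bp. In bivalent regions with PLT5 and EMF2b the same shares were 54.0%, 25.7% and 7.92%, so spanned regions made up a smaller part of the members. When 500 bp had to be covered, 37.7% of the members left had 1 crossed edge.

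**Figure D2:**
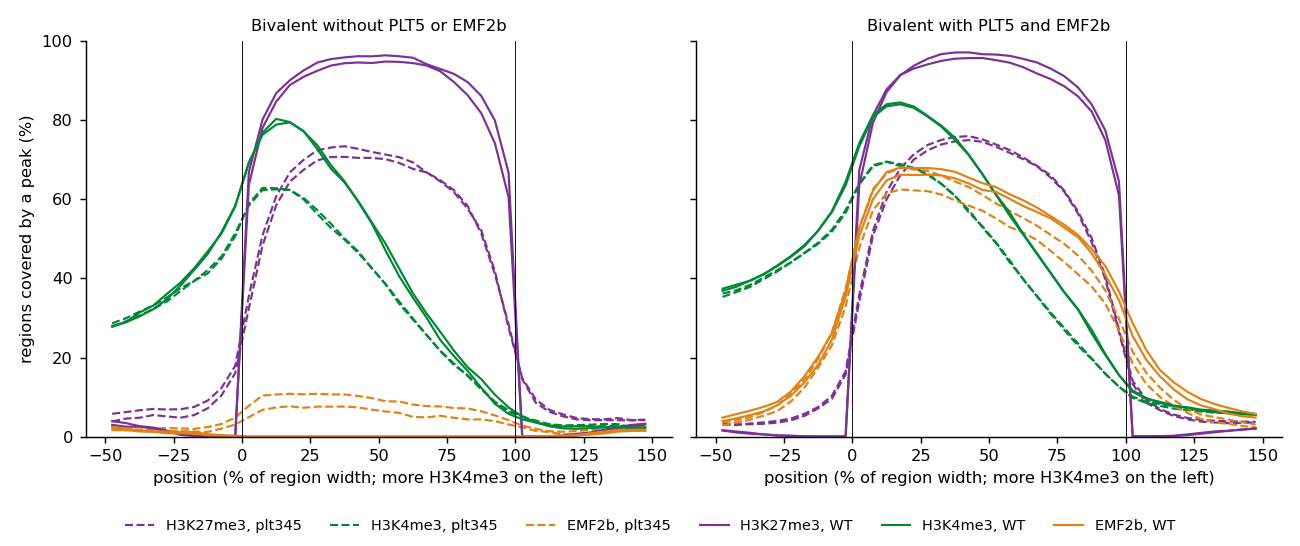
Share of regions (%) in which a peak covers each position, from 50% of the region width before the region to 50% after it, with each region turned so that the side richer in WT H3K4me3 is on the left; each line is 1 library (dashed, plt345; solid, WT). In the 2 WT libraries H3K4me3 of members (left panel) covered 69.4% and 69.2% of regions in the first 5% of the width and 7.38% and 5.74% in the last 5%, a slope that the turning itself helps to make.

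In plt345 most members held each mark, counted anywhere in the region and not only where it lay in WT. H3K27me3 covered at least 150 bp in 690 members (81.1%, 95% Wilson interval 78.3 to 83.6%) of plt345 replicate 1 and 683 (80.3%, 77.5 to 82.8%) of replicate 2. H3K4me3 did so in 688 (80.8%, 78.1 to 83.3%) and 685 (80.5%, 77.7 to 83.0%). Both replicates therefore gave nearly the same share for both marks. Intervals cover counting error only.

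H3K27me3 was absent from both plt345 libraries, and is called lost, in 101 members (11.9%, interval 9.86 to 14.2%), present in both, and called kept, in 623 (73.2%), and present in 1 in 127 (14.9%). Over all 21044 H3K27me3 regions of WT 11.7% were lost, and over all 4377 bivalent regions 11.1%, so the share in members was near the background. H3K4me3 was lost in 119 members (14.0%, 11.8 to 16.5%), kept in 641 (75.3%) and present in 1 library in 91 (10.7%), beside a background of 11.3% lost over all bivalent regions. The lower end of the interval lies above that background, but the interval treats regions as independent, and all regions share the same 2 plt345 libraries. Some members called absent held a shorter stretch: plt345 H3K4me3 peaks touched 713 and 710 members, against 688 and 685 with at least 150 bp. When 1 bp was enough, 12.3% of 958 members lost H3K4me3 (10.4 to 14.6%). Members that held a mark in 1 of the 2 plt345 libraries were about as many as those that lost it, which is the disagreement between replicates.

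The fates of the marks were then counted together. Both were kept in 458 members (53.8%, interval 50.5 to 57.1%), against a background of 60.0% over all bivalent regions. H3K27me3 was lost and H3K4me3 kept in 85 members (9.99%), against 8.36% of all bivalent regions. H3K4me3 was lost and H3K27me3 kept in 93 (10.9%), against 8.29%, and both were lost in 11 (1.29%), against 1.62%. H3K4me3 was lost in 10.9% of the 101 members that lost H3K27me3 (6.19 to 18.5%) and in 14.9% of the 623 that kept it (12.3 to 17.9%), intervals that overlap. Of the other members, 5 had lost H3K27me3 and 15 H3K4me3 with the other mark in 1 library, and 184 had lost neither mark but lacked at least 1 of them in 1 library.

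The count of lost H3K27me3 depended on how much was called in each library. With every list held to an equal number of peaks per antibody 7.98% of members lost H3K27me3, and with equal covered length 6.01%. Lost H3K4me3 came to 17.5% and 11.7% in those settings, to 22.3% when 500 bp had to be covered and to 12.3% when 1 bp was enough. With a single plt345 library to decide, the shares were 18.9% and 19.7% for H3K27me3 and 19.2% and 19.5% for H3K4me3. Leaving out WT replicate 1 or WT replicate 2 gave 18.4% and 20.3% for H3K27me3.

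Each mark was then set against bivalent regions with PLT5 and EMF2b, in the plt345 libraries that the choice of members did not use. H3K4me3 was absent more often from members, by 4.73 percentage points in plt345 replicate 1 and 4.46 points in replicate 2. For H3K27me3 the differences were 2.06 and 2.48 points in the same direction. Both libraries thus showed the same sign for both marks, but a paired permutation over 2 libraries cannot go below an exact two-sided p of 0.5, so neither difference can pass 0.05. Lost in both libraries were 14.0% of members and 10.5% of bivalent regions with PLT5 and EMF2b for H3K4me3, and 11.9% and 10.5% for H3K27me3. At equal covered length per library the H3K27me3 difference turned round, to -0.208 points, and when 500 bp had to be covered it was 4.67 points. When 1 bp was enough, the difference was 1.27 points for H3K27me3 and 2.28 points for H3K4me3. With WT replicate 1 left out the difference was 2.44 points for H3K27me3 and 2.17 for H3K4me3, and with WT replicate 2 left out 3.62 and 4.65 points, against 1.40 and 3.48 points with all libraries.

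Members lay between the classes with a single protein for H3K4me3. It was present in 80.8% and 80.5% of members, against 85.9% and 87.8% of bivalent regions with PLT5 only and 76.6% and 78.3% of those with EMF2b only. It was thus absent from members more often than with PLT5 only in both libraries, by 5.05 and 7.30 points, and less often than with EMF2b only, where the differences were -4.26 and -2.23 points. For H3K27me3 the shares were 81.1% and 80.3% in members, 81.1% and 79.2% with PLT5 only and 81.3% and 80.9% with EMF2b only. Those classes differed from members by 1.10 points or less in either library. H3K27me3 regions without H3K4me3 held the mark in 83.5% and 83.7%, so that it was absent from members more often by 2.45 and 3.48 points. For H3K27me3 lost in both plt345 libraries the difference from these regions was only 0.397 points.

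**Figure D3:**
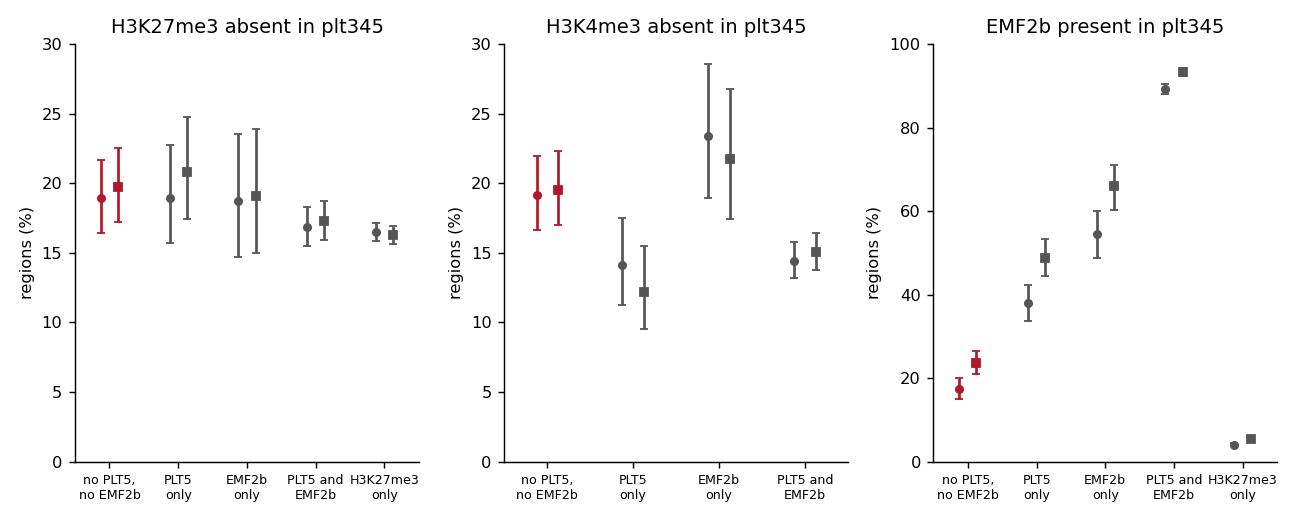
Share of regions (%) in which H3K27me3 is absent (left), H3K4me3 is absent (middle) or EMF2b is present (right) in plt345, for members (red) and the other classes of WT regions (grey); circles are plt345 replicate 1, squares replicate 2, and bars 95% Wilson intervals. EMF2b was present in 17.4% and 23.6% of members, between 4.06% and 5.50% of H3K27me3 regions without H3K4me3 and 89.2% and 93.3% of bivalent regions with PLT5 and EMF2b, a class chosen for EMF2b in WT.

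Members that lost H3K27me3 were narrow and weakly marked in WT. The 101 members without it in plt345 were 659 bp wide at the median, against 1682 bp for the 623 that kept it, and their WT H3K27me3 peaks stood at a median percentile of 25.3 against 58.7. For H3K4me3 width differed little, at 1350 bp in members that lost it and 1399 bp in those that kept it. Its covered length did differ, with a median of 432 bp against 532.5 bp, and so did its strength, at percentiles of 16.7 against 42.5. Members that lost a mark thus ranked lower for that mark in WT.

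Within 3 classes of WT width, bounded at 849.7 and 1766 bp, H3K27me3 was lost in 27.6% of narrow, 8.94% of middle and 2.29% of wide members. The shares were 21.4%, 6.88% and 1.65% in bivalent regions with PLT5 and EMF2b, lower in each class. H3K4me3 was lost in 14.8%, 12.3% and 15.0% of members, against 6.89%, 13.0% and 102 of 849 regions with PLT5 and EMF2b. The H3K4me3 difference was thus present in the narrow and the wide class but not in the middle one. With classes of WT H3K4me3 length in its place, H3K4me3 was lost in 18.5%, 12.9% and 8.87% of members and in 16.0%, 10.5% and 5.82% with PLT5 and EMF2b.

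The placement of H3K4me3 in WT went with which mark was lost. H3K27me3 was lost in 75 of 462 members with 1 crossed edge (16.2%, interval 13.2 to 19.9%), in 3 of 263 with H3K4me3 inside (1.14%, 0.389 to 3.30%) and in 10 of 26 that H3K4me3 spanned (38.5%, 22.4 to 57.5%). H3K4me3 was lost in 11.5% (8.88 to 14.7%), 17.5% (13.4 to 22.5%) and 3.85% (1 of 26, 0.682 to 18.9%) of the same members. The order was the same in bivalent regions with PLT5 and EMF2b, at 10.8%, 3.96% and 23.9% for H3K27me3 and 6.19%, 22.1% and 0.917% for H3K4me3. Width moves with placement, as given above, and its part in these shares was not tested. Members with H3K4me3 inside had both marks kept in 65.8%, those with 1 crossed edge in 50.9% and spanned ones in 19.2%.

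Values near the threshold of 150 bp are given as a description. In 42 members the smallest of the 4 WT lengths was 150 to 199 bp, and 16.7% of them lost H3K27me3, 23.8% lost H3K4me3 and 28.6% kept both marks. Just outside the rule, 34 regions without PLT5 or EMF2b peaks had a smallest length of 100 to 149 bp. H3K4me3 was absent from both plt345 libraries in 17 of these 34 regions. H3K27me3 was absent from both in 17.6%, and 17.6% had both marks in both. In these 34 a mark was already below 150 bp in a WT library, so the threshold itself sets part of their shares. Among the 809 members at 200 bp and more the shares were 11.6%, 13.5% and 55.1%.

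Within the region the length under H3K27me3 was shorter in plt345. It averaged 1101 ± 15.4 bp per member in plt345 and 1454 ± 27.1 bp in WT (SD over libraries, n = 2 each), a ratio of 0.757. H3K4me3 averaged 484 ± 3.30 bp in plt345 and 602.5 ± 3.73 bp in WT (SD, n = 2 each), a ratio of 0.804. The ratios in bivalent regions with PLT5 and EMF2b were 0.757 and 0.794, so the members did not stand apart. Both differences exceed the spread of the libraries, but the members were required to hold both marks in WT and the regions end where WT H3K27me3 ends, so the choice alone can lower the plt345 values, and an exact permutation of 2 against 2 libraries cannot go below p = 0.333.

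Region by region, the H3K27me3 length of both plt345 libraries lay below both WT libraries in 477 members (56.1%), against 57.0% of all bivalent regions, and above both in 13 (1.53%, against 1.80%). For H3K4me3 it lay below in 380 members (44.7%), against 49.7% of all bivalent regions, and above in 139 (16.3%, interval 14.0 to 19.0%), against 11.0%. In bivalent regions with PLT5 and EMF2b the last share was 8.83%. Members therefore had both a larger share without H3K4me3 in plt345 and a larger share with more of it than regions with PLT5 and EMF2b. Lengths stop at the region edge, and regions with PLT5 and EMF2b were narrower and more covered in WT. They thus had less room for more H3K4me3, and the part of this in the difference was not tested. In the 641 members that kept H3K4me3 its length averaged 615 ± 5.18 bp in plt345 and 634.5 ± 4.55 bp in WT. In the 623 that kept H3K27me3 its length averaged 1454 ± 18.7 bp in plt345 and 1726 ± 37.5 bp in WT (SD over libraries, n = 2 each).

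**Figure D4:**
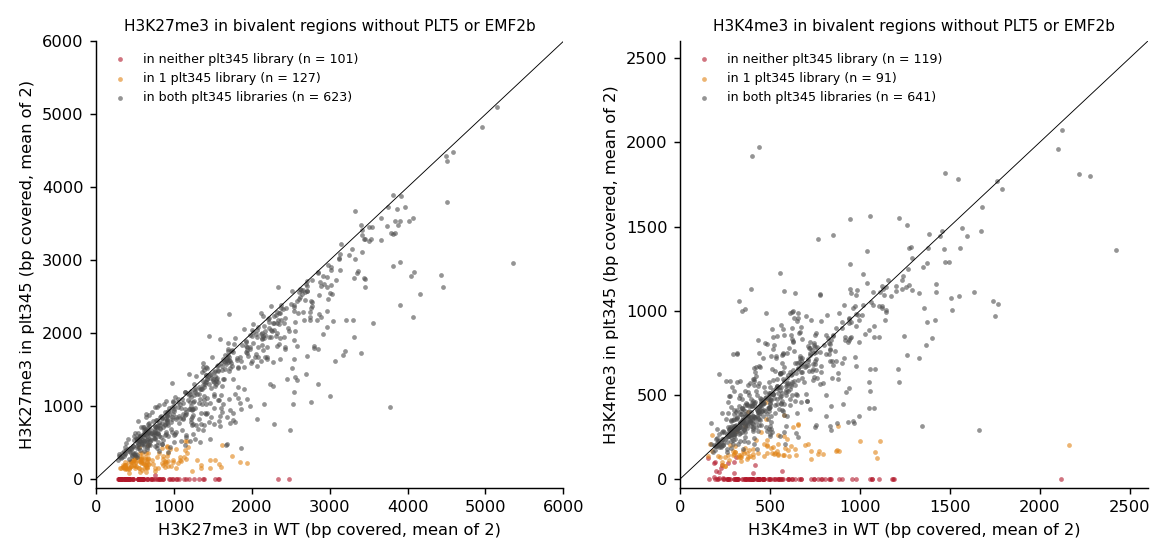
Length under H3K27me3 (left) and H3K4me3 (right) in each member, in bp as the mean of 2 libraries, in plt345 (vertical axis) against WT (horizontal axis); colours give the number of plt345 libraries with at least 150 bp, and the line marks equal lengths. Most H3K27me3 points lie below the line, whereas H3K4me3 points lie on both sides, with 139 members above both WT lengths in both plt345 libraries.

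Counted in bases, less of the bivalent sequence remained bivalent in members than in regions with PLT5 and EMF2b. Bases under both marks summed to 284 and 277 kb in plt345, against 471 and 463 kb in WT. Both WT replicates shared 376 kb of such bases. In plt345, 54.5% and 53.5% of these held both marks, 22.5% and 21.2% H3K27me3 only, 17.8% and 18.8% H3K4me3 only and 5.13% and 6.48% neither. In regions with PLT5 and EMF2b 62.0% and 60.9% held both. H3K27me3 remained on 77.1% and 74.7% of the members' bivalent bases and on 78.6% and 77.5% of their H3K27me3 bases outside H3K4me3, so the bases with and without H3K4me3 kept it to a similar extent.

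EMF2b peaks were found in plt345 at a minority of the members, although none had one in WT by the rule. EMF2b covered at least 150 bp in 148 members (17.4%, interval 15.0 to 20.1%) of plt345 replicate 1 and 201 (23.6%, 20.9 to 26.6%) of replicate 2. It was present in both in 119 (14.0%, 11.8 to 16.5%). The same was true of 5.30% of the 14668 H3K27me3 regions of WT, most of them without H3K4me3, that held no WT EMF2b peak. At least 1 library had it in 230 members, and 621 had it in neither. The share was 33.9% in bivalent regions with PLT5 only, which also lacked EMF2b in WT, and 3.02% in H3K27me3 regions with none of the other peaks. The 2 plt345 libraries differed in EMF2b, and single-library shares of 17.4% and 23.6% stand beside lists of 15342 and 17891 peaks.

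EMF2b covered a short stretch of the members that had it, counted inside the region only. Where both plt345 libraries had a peak, the medians were 335 and 380 bp. The strongest peaks stood at median percentiles of 39.9 and 49.2 of their lists. In bivalent regions with PLT5 and EMF2b the values were 551 and 596 bp and percentiles of 78.0 and 81.3. That class was chosen for EMF2b in WT and the members for its absence, so the choice itself can set part of this contrast. The shortest EMF2b peak of a list had 247 and 249 bp in plt345, against 290 and 285 bp in WT, so shorter peaks were called in plt345, and the part of this in the EMF2b result was not tested. When 500 bp had to be covered, 2.67% of members had EMF2b in both plt345 libraries. When WT peaks of PLT5 or EMF2b in 1 library were allowed, the share was 21.7%, and it was 23.6% without plt345 replicate 1. Of the EMF2b bases in members, 57.1% and 54.5% lay under H3K4me3 of both WT replicates, whereas 34.0% of all region bases did.

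The fates of the marks were compared between members with EMF2b in both plt345 libraries and members with it in neither. H3K27me3 was lost in 16.0% with EMF2b (10.5 to 23.6%) and 11.4% without (9.16 to 14.2%), and H3K4me3 in 16.8% with EMF2b (11.2 to 24.5%) and 14.3% without (11.8 to 17.3%). Both marks were kept in 53.8% with EMF2b and 53.1% without. The intervals of each pair overlap, which does not show that the fates are the same.

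Single regions show the range of fates. The most bases under both marks in WT were found at chr2:31265439-31268527, where H3K4me3 lay inside the region. H3K4me3 covered 1209 and 1513 bp there in plt345, against 2364 and 2489 bp in WT. H3K27me3 covered 2875 and 2700 bp in plt345 and 2753 and 3076 bp in WT, and EMF2b 437 and 816 bp in plt345 and none in WT. H3K27me3 overlapped between the genotypes and H3K4me3 did not, with its block shorter and split in plt345. The next, chr1:30115282-30119223, had 2068 and 1555 bp of H3K4me3 in plt345 and 2233 and 2205 bp in WT, under H3K27me3 of 3837 and 3925 bp in plt345 and 3942 and 3883 bp in WT.

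The third by that rank, chr5:23494832-23497626, had 0 and 399 bp of H3K4me3 in plt345 against 2101 and 2231 bp in WT, with 2557 and 2142 bp of H3K27me3 in plt345 and 2728 and 2795 bp in WT. H3K4me3 was thus much shorter in both plt345 libraries while H3K27me3 stayed over most of the region. In WT an EMF2b peak lay 80 bp outside it and overlapped the part of the H3K4me3 peak that reached beyond the region. EMF2b also had a peak there in plt345 replicate 1. The fourth, chr7:20327446-20330454, and the sixth, chr6:28037068-28039595, kept both marks. The fourth had 2049 and 2099 bp of H3K4me3 in plt345 and 2148 and 2099 bp in WT, and the sixth 1863 and 1737 bp in plt345 and 2218 and 2344 bp in WT. The nearest WT peaks of PLT5 and EMF2b lay 618 and 602 bp from the fourth, and 3660 and 3600 bp from the sixth.

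The fifth, chr12:18783285-18787923, was also the largest loss of H3K4me3 among members that kept H3K27me3. H3K4me3 covered 0 bp in both plt345 libraries, against 2188 and 2048 bp in WT, while H3K27me3 covered 4462 and 4516 bp in plt345 and 4639 and 4524 bp in WT. The next 2 of this kind were chr7:11087874-11091592, with 0 bp of H3K4me3 in both plt345 libraries against 1156 and 1223 bp in WT, and chr1:40525936-40527762, with 0 bp against 1299 and 1070 bp. The first of them kept 3604 and 3549 bp of H3K27me3 in plt345 beside 3719 and 3600 bp in WT, and the second 866 and 958 bp in plt345 beside 1827 and 1680 bp in WT. No EMF2b peak was present at any of these 3 in plt345, and the nearest WT PLT5 peaks lay more than 10 kb away.

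The opposite fate is shown by chr9:19886867-19889337, where H3K27me3 covered 0 bp in both plt345 libraries, against 2235 and 2427 bp in WT. Its H3K4me3 covered 1367 and 843 bp in plt345 and 1283 and 1375 bp in WT, values that overlap. The longest such loss was chr12:8483793-8486301, with 0 bp of H3K27me3 in both plt345 libraries and 2509 and 2448 bp in WT. The part of its H3K4me3 inside the region was short in both genotypes, at 244 and 305 bp in plt345 and 313 and 231 bp in WT. The H3K4me3 peaks crossed the edge in all these libraries, with most of their length outside the region. The last of the 3, chr1:38107650-38109883, had 0 bp of H3K27me3 in plt345 against 1722 and 1450 bp in WT. H3K4me3 covered 194 and 202 bp of it in plt345 against 186 and 198 bp in WT, again from peaks that lay mostly outside the region. The nearest WT PLT5 peak lay 409 bp from this region, 18900 bp from the one on chromosome 9 and 43962 bp from the one on chromosome 12.

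Members without either mark in plt345 were narrower. The widest, chr1:31055102-31056845, had 1655 and 325 bp of H3K27me3 and 387 and 241 bp of H3K4me3 in WT, so its WT replicates differed widely in H3K27me3. The others were chr4:32773946-32775150, with 1079 and 815 bp of H3K27me3 and 443 and 804 bp of H3K4me3 in WT, and chr2:124665-125810, with 544 and 1024 bp and 1109 and 1005 bp. Neither mark had any covered base in the plt345 libraries at these 3.

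H3K4me3 was longer in plt345 at some members. At chr3:2209972-2213955 it covered 2001 and 1939 bp in plt345, against 564 and 312 bp in WT, and all of it lay inside an H3K27me3 block of 3717 and 3731 bp in plt345 and 3984 and 3962 bp in WT. At chr2:5955009-5957531 it covered 1806 and 2034 bp in plt345 and 420 and 381 bp in WT, and at chr11:281586-284339 917 and 1335 bp in plt345 and 396 and 394 bp in WT. The genotypes did not overlap at any of these 3, which were ranked by the gain of bases under both marks, and EMF2b was present only in plt345 replicate 1 of the second. The second also had a separate H3K4me3 peak in both plt345 libraries where WT had none.

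**Figure D5:**
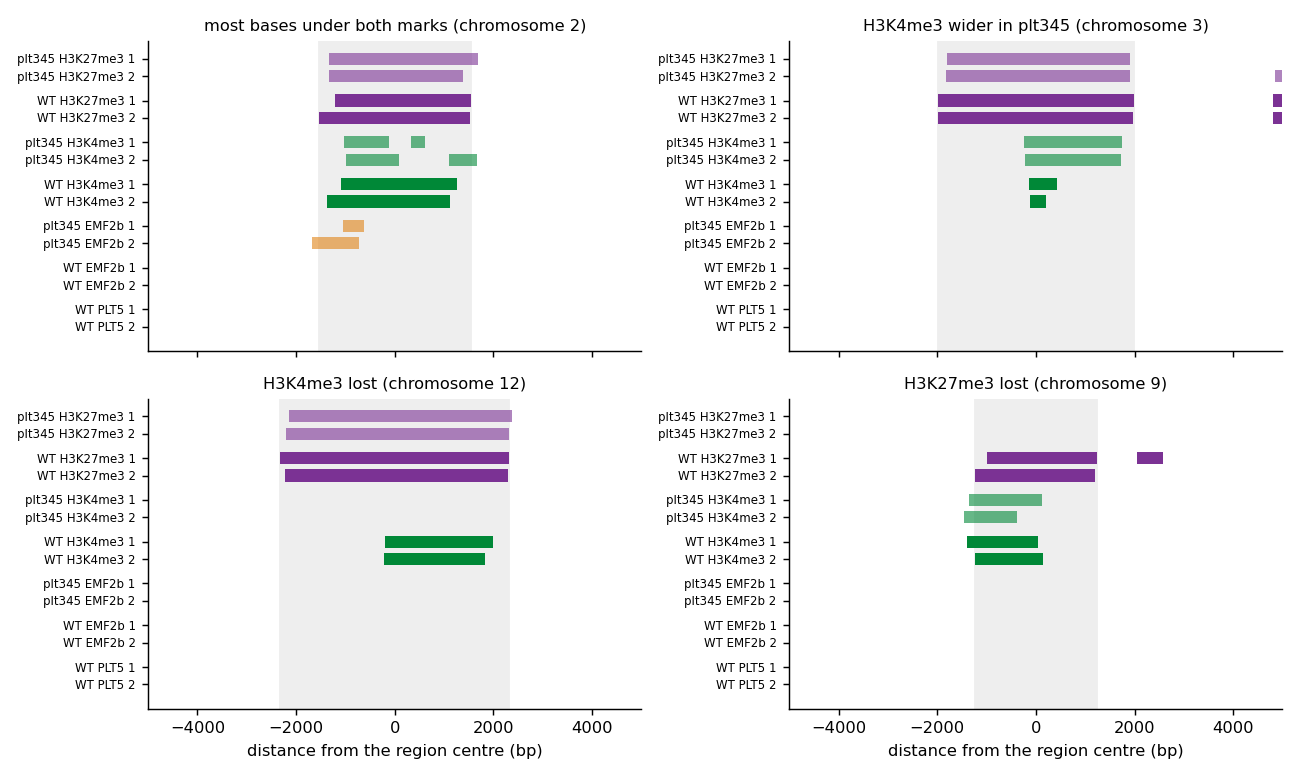
Peaks of each library (rows, with plt345 above WT for each antibody) around 4 members, against the distance in bp from the region centre; the grey band is the region. H3K4me3 is split and shorter in plt345 at the first, longer in plt345 at the second and absent in plt345 at the third under unbroken H3K27me3, and H3K27me3 is absent in plt345 at the fourth.

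The longest EMF2b cover in plt345 was found at chr3:26349018-26350536, with 1317 and 1119 bp in plt345 and none in WT. H3K4me3 there covered 0 and 334 bp in plt345 and 884 and 856 bp in WT. At chr4:27323604-27326634 EMF2b covered 907 and 1101 bp in plt345, and H3K4me3 290 and 268 bp in plt345 and 334 and 387 bp in WT. At chr6:19444446-19446931 EMF2b covered 876 and 844 bp in plt345 and H3K4me3 1400 and 1487 bp in plt345 and 1529 and 1668 bp in WT. All 3 kept H3K27me3 in both plt345 libraries.

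The 3 widest members kept both marks. In chr10:17845600-17851386 H3K27me3 covered 3301 and 2615 bp in plt345 and 5662 and 5043 bp in WT, and H3K4me3 631 and 958 bp in plt345 and 1223 and 1511 bp in WT, so both marks were shorter in both plt345 libraries. In chr2:28313667-28319200 H3K27me3 covered 4938 and 5258 bp in plt345 and 5441 and 4844 bp in WT, which overlap, and H3K4me3 1404 and 1045 bp in plt345 and 699 and 414 bp in WT. In chr3:13705804-13711042 H3K27me3 covered 3072 and 2609 bp in plt345 and 5239 and 2918 bp in WT, and H3K4me3 1300 and 1254 bp in plt345 and 1010 and 881 bp in WT. H3K4me3 covered more bases in both plt345 libraries at the second and the third. Both had separate plt345 H3K4me3 peaks where WT had none, at the opposite end of the second region and to one side of the WT peak in the third.

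The rule was also turned round, as an addition made after the data were seen, so that the plt345 lists of H3K27me3, H3K4me3 and EMF2b chose the regions, with PLT5 still from WT, and the WT lists were read. It gave 743 of 3402 bivalent plt345 regions, with a median width of 1538 bp. H3K4me3 was absent from both WT libraries in 229 of them (30.8%, interval 27.6 to 34.2%), against 12.3% of all bivalent plt345 regions and 3.43% of the 2013 with PLT5 and EMF2b. In single WT libraries it was absent from 35.3% and 36.9% of these regions, against 4.77% and 5.46% of those with PLT5 and EMF2b. PLT5 peaks came from WT, the genotype in which H3K4me3 was then read, so the choice can itself set part of this contrast. H3K27me3 was absent from both WT libraries in 43 (5.79%), against 4.42% of all H3K27me3 regions of plt345. EMF2b was present in both WT libraries in 26 of the 743 and absent from both in 694 (93.4%), beside a background in which 3.85% of all H3K27me3 regions of plt345 without EMF2b had it in both.

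The regions chosen in the 2 directions overlapped in part: 309 members (36.3%) overlapped a region chosen from plt345, and 307 of those regions (41.3%) overlapped a member. The 229 regions had a median of 480 and 493 bp of H3K4me3 in plt345, against 545 bp in both libraries over all 743. A member thus lacked H3K4me3 in the other genotype in 14.0% of cases, and a region chosen from plt345 in 30.8%. The 2 directions are not like for like. PLT5 peaks came from WT in both, which is the choosing genotype for members but the genotype read for the other regions. The lists hold more H3K4me3 peaks in plt345 than in WT and fewer H3K27me3 peaks. With an equal number of peaks per library the shares were 17.5% of members and 25.4% of regions chosen from plt345, closer together but in the same order. With equal covered length they were 11.7% of members and 30.6% of regions chosen from plt345.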

How the data were processed

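The authors deposited 1 peak list per CUT&Tag library, called without pooling. The tools named in the submitters' processing notes are MACS2 2.2.7.1, Bowtie2 2.4.4, Trim Galore 0.6.6 and deepTools 3.5.0, whereas the sources used here give neither their roles nor the control library or genome build. H3K27me3 lists are broad peaks (a cutoff of 0.1 in the peak names) and the others narrow peaks (p cutoff of 1e-05 in the names). Each deposited list holds other columns with the peak start and end in bp, a score, a fold enrichment, and −log10 p and −log10 q, all the authors' values. Of 20 samples, 14 were used and 6 were not analysed here.

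Peaks were merged and covered lengths computed with NumPy 2.4.6, pandas 2.3.3 and SciPy 1.17.1 in Python 3.11.15, and plots drawn with Matplotlib 3.10.9. A mark was present where at least 150 bp were covered, and PLT5 or EMF2b touched a region at 1 bp. Shares have Wilson 95% intervals, which cover counting error only, and regions are not replicates, so no test was made over them. Code was tested on simulated peaks. The members, the classes set beside them and the rules for named regions were chosen with earlier results of these data known. Named regions were the 6 members with the most bases under both WT marks, the 3 widest, the 3 largest losses of each mark with the other kept, the 3 widest that lost both, and the 3 with the most EMF2b and the 3 with the largest gain of bases under both marks in plt345. Alternatives were 1 or 500 bp covered, equal peak number or covered length per library, mark peaks above the 25th percentile of q, 150 bp under both marks at the same bases, no PLT5 or EMF2b peak within 500 bp, such a peak allowed in 1 library, each replicate left out, and replicate numbers as a block.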

Additional observations from a re-analysis of the deposited data

How the results depend on the processing

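Members numbered 337 when 500 bp had to be covered, 348 with histone peaks limited to those over the 25th percentile by q, 1318 with a PLT5 or EMF2b peak allowed in 1 library and 1332 to 1422 with 1 WT replicate left out. Lost H3K27me3 came to 7.98% at equal peak numbers and 6.01% at equal covered length, and to 18.4 to 20.3% with 1 library left out. Lost H3K4me3 came to 12.3% at 1 bp, 22.3% at 500 bp, 17.5% at equal peak numbers, 11.7% at equal length and 16.5 to 19.5% with 1 library left out. Both marks were kept in 49.9% at 500 bp, 65.4% at equal length, 47.7% with the q filter and 44.2 to 64.3% with 1 library left out. EMF2b in plt345 came to 2.67% at 500 bp, 11.2% at equal peak numbers, 21.7% with 1 library allowed and 16.7 to 23.6% with 1 library left out. The H3K27me3 difference from bivalent regions with PLT5 and EMF2b was 4.67 points at 500 bp and -0.208 at equal length, where its sign turned; the cause was not tested. With 1 library left out it was 2.06 to 3.62 points, against 1.40 with all libraries, and the H3K4me3 difference was 2.17 to 4.73 points, against 3.48. H3K4me3 crossed 1 edge in 59.3% at 1 bp, 37.7% at 500 bp, 65.2% with the q filter, 50.6% with both marks at the same bases and 58.6 to 62.4% with 1 WT replicate left out. For regions chosen from plt345, H3K4me3 was absent from WT in 25.4% at equal peak numbers, 25.6% with 1 library allowed and 34.3 to 36.5% with 1 library left out.

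Replicate numbers are only shared numbers in 2 pairs, so they pair nothing. With the replicate number as a block, where loss is absence from the plt345 library of the same number, 19.3% of members lost H3K27me3, 19.3% lost H3K4me3, 64.1% kept both and 20.5% had EMF2b in plt345, with differences of 2.27 and 4.60 points for the marks. Leaving out a library loosens a call that asks for both. Read depth is unknown, so a weak peak missed in plt345 cannot be told from one that is absent.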
